A study of Mus musculus with 7 samples.

Results

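Dgcr2 and Car15 are neighboring genes on mouse chromosome 16, and the interval around them holds the site with the highest enrichment of estrogen receptor β (ERβ) over input in these ovary libraries. The interval was defined as the GENCODE bodies of both genes with 50 kb on each side, chromosome 16, 17785276 to 17948562 (GRCm38, mm10). Both genes, 2 of the 53843 GENCODE genes on the autosomes and chromosome X, were selected on measured values, since the site was chosen by its ChIP signal over input. The values of the site are therefore a description, also where a fit across the whole genome calls it. Of the 4841 sites found by the same rule in the genome, 1 lay in this interval.

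The assay was ChIP-seq, in which cross-linked, sheared chromatin is pulled down with an antibody, here against ERβ, and the recovered DNA is sequenced. Files of 3 ERβ ChIP libraries and of 2 inputs, which are sheared chromatin without the antibody step, were used. All 5 came from fresh ovaries of female C57BL/6J mice that express ERβ from their own gene, with no hormone treatment given in the labels. By the methods of the study, each replicate was a pool of ovaries from several mice aged from weeks to a few months, and an ovary mixes follicles, corpora lutea and stroma. The 2 ChIP samples from ERβ knockout ovaries, with deleted ERβ, were not used here, so the signal was compared with input only. The files hold no RNA measurement, and the labelled tissue could not be checked against marker genes.

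ERβ is a nuclear receptor that granulosa cells of the follicle express strongly. Its dimers bind the estrogen response element (ERE), an inverted repeat of a half-site in which each receptor of the pair contacts a half-site, and they can also reach chromatin through other DNA-binding factors. Dgcr2 encodes a membrane protein with a domain organization like that of adhesion receptors, and lies in the chromosomal segment that corresponds to the region deleted in DiGeorge syndrome. Car15 encodes a carbonic anhydrase attached to the cell surface, an enzyme that converts carbon dioxide and water to bicarbonate and a proton. Binding within a gene does not by itself show which gene, if any, a receptor regulates.

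The strongest site was the 200-bp window chr16:17856081-17856280. It is shown with the best match to the ERE consensus, GGTCANNNTGACC, in capitals, together with the lower second summit at chr16:17856721-17856920, since both windows hold a single match with 2 or fewer mismatches. Both are the plus strand of GRCm38, 5′ to 3′, while Dgcr2 and Car15 are transcribed from the minus strand.
strongest site: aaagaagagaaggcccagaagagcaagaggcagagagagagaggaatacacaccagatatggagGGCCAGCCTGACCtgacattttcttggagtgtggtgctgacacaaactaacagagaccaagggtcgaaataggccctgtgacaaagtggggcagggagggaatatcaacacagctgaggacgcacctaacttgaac
second summit: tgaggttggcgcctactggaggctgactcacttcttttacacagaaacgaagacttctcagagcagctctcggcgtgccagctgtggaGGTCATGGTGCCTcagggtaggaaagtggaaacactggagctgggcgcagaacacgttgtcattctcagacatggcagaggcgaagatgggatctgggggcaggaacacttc

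The ERE of the strongest site, at 17856145 to 17856157, differed from the consensus by T3C, with positions counted from 1 at the 5′ end of the plus strand and the consensus base given first. The right half-site was therefore intact and the left one held a single change. The ERE of the second summit, at 17856809 to 17856821, had its left half-site intact and differed by A11C and C13T. Matches with at most 2 mismatches are common, in 6.68% of 200-bp windows of the genome. The strongest site had a GC content of 51.0%. Its left edge abutted sequence that the assembly marks as repeat, with 193 of the 200 bases before the window in a repeat and 51 of the 200 bases within it. The ERE itself and the 200 bases after the window lay outside repeats.

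The deposited tracks were scaled to a common library total, so that their genome means were close. The genome mean signal was 0.362, 0.365 and 0.366 in ChIP replicates 1, 2 and 3, and 0.370 and 0.367 in Input replicates 1 and 2. Signal here is the coverage averaged over the window, in the scaled units of the tracks, and the number of reads behind it cannot be read from the files. Fold over input is the signal of 1 ChIP library divided by the mean of both inputs in the same window, where an input mean under 0.368, the genome mean of the inputs, was raised to that value.

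At the strongest site, the signal was 20.4, 27.4 and 29.3 in ChIP replicates 1, 2 and 3, against 0.324 and 0.368 in Input replicates 1 and 2. All ChIP libraries were high, and the mean of both inputs lay under the floor, so the denominator of the fold was the floor. The fold over input was 55.4, 74.3 and 79.5, or 69.8 ± 12.7 (SD, n = 3). ChIP replicate 1 was the lowest, at 0.720 of the mean of the other two. At all sites of the genome the median of that ratio was 0.804, with quartiles of 0.648 and 0.989, so the site was not unusual in the order of its replicates.

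The track names of ChIP replicates 2 and 3 and Input replicate 2 begin with the same prefix, which those of ChIP replicate 1 and Input replicate 1 lack, and what the prefix stands for is not given. Within these 2 sets of libraries the fold was 55.2 for ChIP replicate 1 over Input replicate 1, and 74.4 and 79.6 for ChIP replicates 2 and 3 over Input replicate 2. Input replicate 1 was under its genome mean, so the first of these folds again has the floor as its denominator, and it was 63.0 over the measured value. Input replicate 2 was close to the floor, so these folds are near those over both inputs by construction.

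The place of the site in the genome depended on how input was taken into account, and it was first only when the signal was divided by input. By fold it ranked 1 of 4841 in each of the 3 ChIP libraries, and the next site had a mean fold of 52.4, against a median of 6.23 over all sites. By mean ChIP signal alone it ranked 30, and by ChIP minus input 27. Its input mean of 0.346 was low, with 4.98% of sites having a lower one and a median over sites of 0.573. A total of 7.87% of sites had an input under the floor, as this site did.

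**Figure D1:**
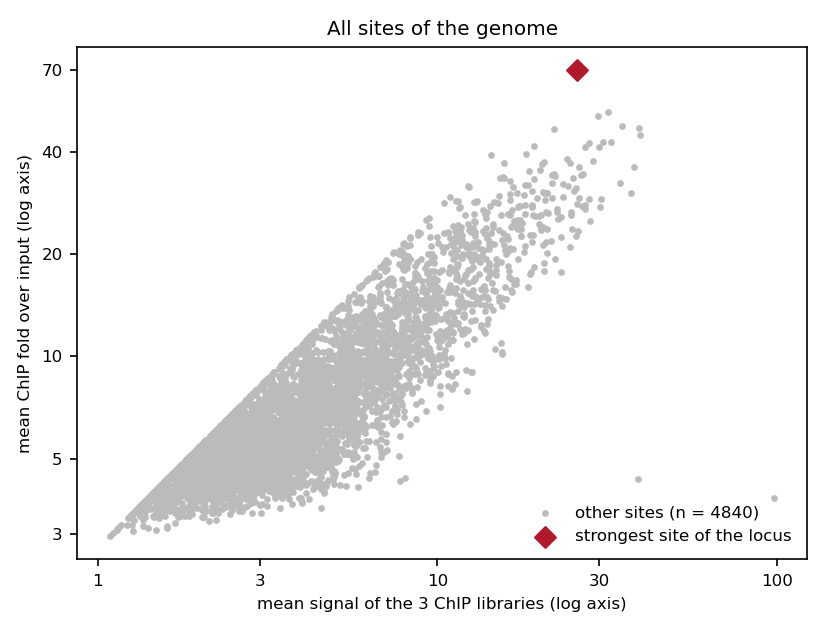
Mean fold over input (vertical, log axis) against the mean signal of the 3 ChIP libraries (horizontal, log axis) for all 4841 sites, 1 point per site. The strongest site of the Dgcr2 and Car15 interval (red diamond) has the highest fold, 69.8, while it ranks 30 by ChIP signal, with the sites of higher signal to its right.

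The signal rose and fell steeply. The highest value in the track was 24.7, 32.7 and 34.6 in ChIP replicates 1, 2 and 3. The width at 50% of that height was 199, 207 and 227 bp, or 211 ± 14.4 bp (SD, n = 3). The 200-bp window of highest signal was centered 31, 32 and 38 bp to the right of the ERE center, towards the Dgcr2 start, a mean offset of 33.7 ± 3.79 bp (SD, n = 3). The replicates thus placed the summit on the same side of the ERE, with little spread. Track values are averages over segments, which limits the precision of this position.

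The second summit lay 640 bp to the right of the strongest site. Its signal was 2.93, 2.53 and 2.52 in ChIP replicates 1, 2 and 3, and 0.681 and 0.5 in Input replicates 1 and 2. Every ChIP library exceeded both inputs here, and ChIP replicate 1, the lowest at the main summit, was the highest. The fold over input was 4.96, 4.29 and 4.27, or 4.51 ± 0.390 (SD, n = 3), just inside the threshold of 4. Within the sets of track names, it was 4.30, 5.06 and 5.04. Relative to the main summit the signal was 14.3%, 9.25% and 8.60%, or 10.7% ± 3.12 (SD, n = 3). Between both summits the signal dropped to 0.860, 0.770 and 0.650. Since windows within 200 bp of each other were joined, both summits formed 1 site of 1100 bp, 17855841 to 17856940.

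**Figure D2:**
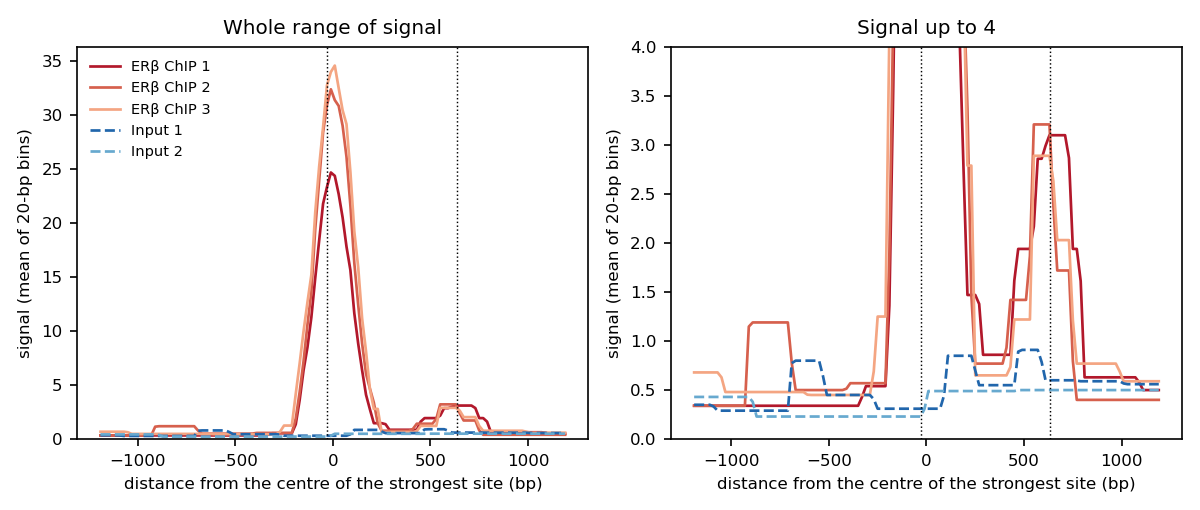
Signal in 20-bp bins (vertical) against the distance from the center of the strongest site in bp (horizontal) for the 3 ChIP libraries (solid) and 2 inputs (dashed). The right panel shows the same lines up to a signal of 4, and dotted lines mark both EREs. All 3 ChIP libraries peak just right of the first ERE, with highest bins between 24.7 and 34.5. They peak again at the second ERE with a signal near 3, while both inputs stay under 1.

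Both summits lay in Dgcr2 (ENSMUSG00000003166.20, 17839482 to 17898562, minus strand). The main summit was in intron 6 of 9 of the Dgcr2 transcript ENSMUST00000117945.7, a 6957-bp intron from 17849795 to 17856751, and lay 572 bp after the upstream exon. None of the 8 transcripts that span it has an exon there. The second summit straddled the start of that intron, with 169 of its 200 bases in coding exon 6 of 10, at 17856752 to 17856928, and its ERE lay within that exon. The annotation also has Gm20518 (ENSMUSG00000092470.1), a gene model that spans both Car15 and Dgcr2 on the same strand and shares the intron.

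No start of a coding transcript was close. The nearest was that of Car15 (ENSMUSG00000090236.3, 17835276 to 17838364, minus strand), with the site 17.8 kb upstream of it. For Dgcr2, the site lay 35.4 kb downstream of its nearest coding start and 37.9 kb downstream of its outermost one. A non-coding Dgcr2 transcript with a retained intron starts 11 kb away. Over all sites the median distance to the nearest coding start was 25.4 kb, and 58.2% of sites were farther than this one.

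Outside the site the interval held little ERβ signal above input. Among 815 adjoining 200-bp windows, 2 were over 4-fold in at least 2 ChIP libraries, and both were over it in all 3. Genome-wide, 0.0444% of windows were called by this rule, and since the interval was chosen for such a window the count is not read against it. The called windows, at 17856001 to 17856400, had mean folds of 52.5 and 26.3. The highest among the others was 3.41, at the second summit 720 bp away, and that window was over 4-fold in 1 library, ChIP replicate 1. The median fold of the interval was 0.825 and its 95th percentile 1.40.

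**Figure D3:**
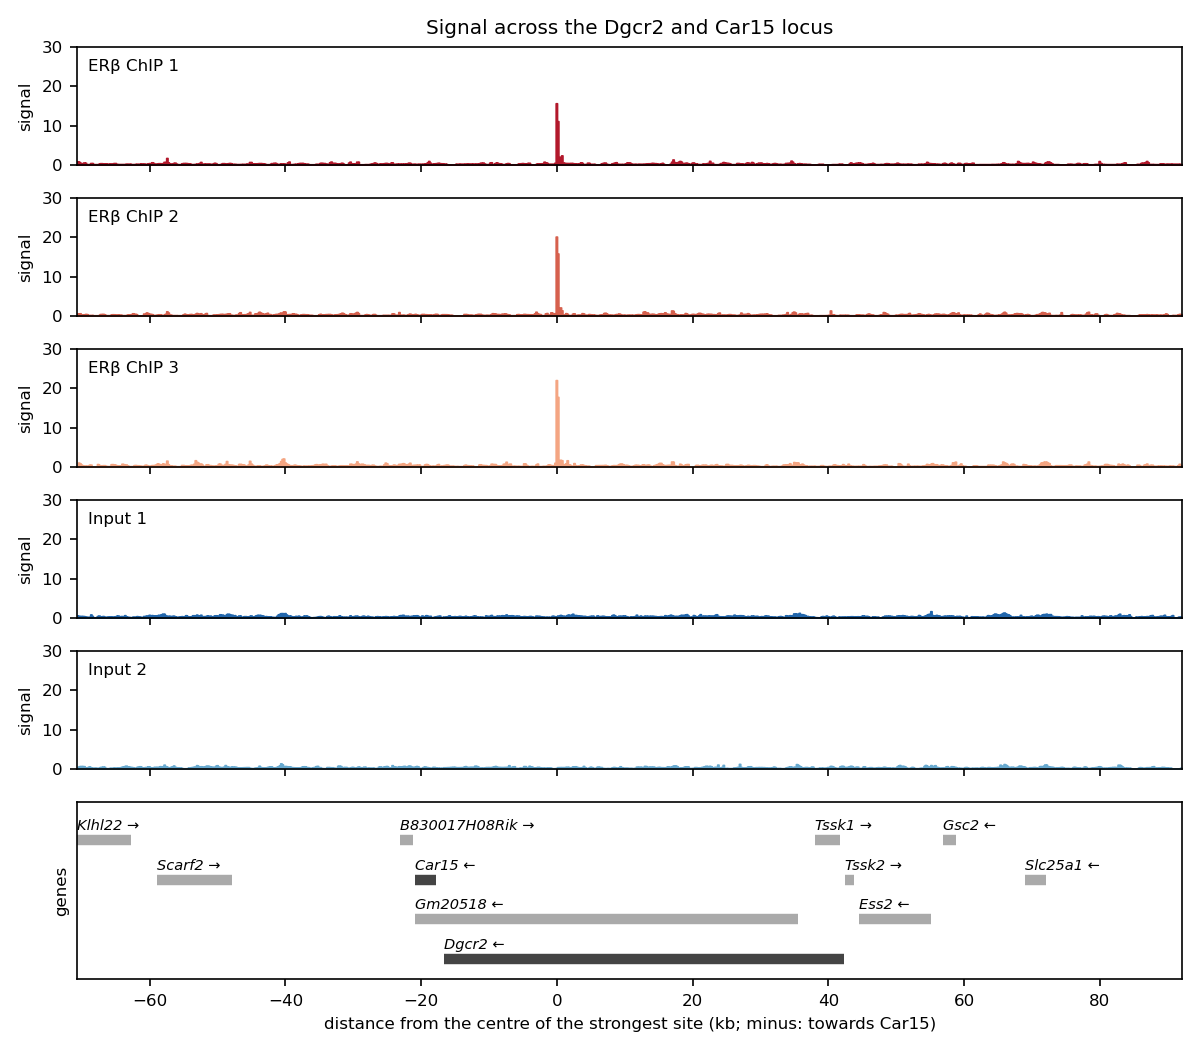
Signal in adjoining 200-bp windows (vertical, the same scale from 0 to 30 in each panel) against the distance from the center of the strongest site in kb (horizontal) for each library, with gene bodies and their strand in the lowest panel. The 3 ChIP libraries share a single spike at 0, inside Dgcr2, and both inputs are flat on this scale.

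The site took up 0.674% of the length of the interval and held 9.41%, 10.4% and 9.93% of its signal in ChIP replicates 1, 2 and 3, against 0.724% and 0.547% in Input replicates 1 and 2. Without the 2 kb around the site, the mean signal of the interval was 0.386, 0.437 and 0.505 in the ChIP libraries and 0.518 and 0.511 in the inputs. All 3 ChIP libraries lay below both inputs there, and all 5 lay above their genome mean. How often other intervals of this length show that order was not computed, so it is not read as particular to this one.

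The same contrast was fitted in 1-kb windows across the genome with limma on log2(signal + 0.5), 3 ChIP libraries against 2 inputs. In the interval 162 windows were tested, of which 1 was higher in ChIP and 0 were lower at an adjusted p under 0.05. Genome-wide, 0.0957% of windows were higher and 0.00267% lower. At an unadjusted p under 0.05, 2 of the 162 windows were higher and 16 lower, against 1.9% and 3.33% of windows genome-wide. The lower windows were thus a larger share than genome-wide and the higher ones a smaller share. This difference was not tested. The window called was 17856001 to 17857000, which holds both summits, with a signal of 6.49, 8.12 and 8.87 in ChIP replicates 1, 2 and 3 and 0.589 and 0.448 in the inputs. Its log2 fold change was 3.02 (SE 0.255), against a median of -0.11 over the windows of the interval and -0.01 over all windows. As the rule used the same contrast, this value is no independent evidence.

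Below the threshold, 5 more maxima had a mean fold over 2. The highest lay in an intron of Scarf2, which encodes a scavenger receptor family protein, at chr16:17798661-17798860, 1.45 kb after its start. The signal there was 1.84, 1.47 and 1.63 in the ChIP libraries and 0.474 and 0.523 in the inputs. All ChIP libraries exceeded both inputs, and the fold of 3.31 ± 0.377 (SD, n = 3) lay just outside the rule. The window holds an ERE match with A11T and C12T, here shown in capitals on the plus strand.
Scarf2 intron ERE: tggtgGGTCAAGCTGTTCcgagc

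The other maxima below the threshold were less even among replicates, with 1 exception. At 17934361 to 17934560, 6.24 kb upstream of Slc25a1, the mitochondrial citrate carrier, the fold was 0.516, 3.58 and 3.51, so ChIP replicate 1 was not enriched. Within Dgcr2, at 17873131 to 17873330 and 17050 bp to the right of the strongest site, the folds were even, at 2.30, 2.32 and 2.44 in ChIP replicates 1, 2 and 3. The remaining maxima, both intergenic, had mean folds of 2.69 ± 1.02 and 2.10 ± 0.599 (SD, n = 3).

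ERE matches elsewhere in the interval did not carry comparable signal. It held 7 matches with at most 1 mismatch, of which 1 was over 4-fold in at least 2 ChIP libraries, and no perfect match. Genome-wide, 2.26% of such matches were over 4-fold. The 1 here is the ERE of the selected site, so the count is not read against that share. The 6 others had mean folds from 0.663 to 1.94. All 7 are shown, with the match in capitals and 5 flanking bases on each side, plus strand, named by their first base on chromosome 16.
17826625: gtagaGGTCATATTGACAtgtga
17856145 (strongest site): tggagGGCCAGCCTGACCtgaca
17857627: tcttaGGTCACCATGATCctgtt
17857658: accatGGTCAGAATGACAgctat
17885613: agtttTGTCAACTTGACCcttgg
17924586: gtcagGGCCACAGTGACCctaac
17945910: tgtggGGTGATGCTGACCaggtg

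The match at 17924586 has the same T3C change as the strongest site. In the 200-bp window centered on it, the signal was 0.480, 0.710 and 0.260 in ChIP replicates 1, 2 and 3 and 0.664 and 0.762 in the inputs, a fold of 0.678 ± 0.316 (SD, n = 3). It was thus not enriched, with ChIP and input values overlapping. A pair of matches in the same gene as the strongest site, at 17857627 and 17857658 in Dgcr2 and about 1.5 kb from it, had C12T and C13A. Their folds were 1.46 ± 0.861 and 1.42 ± 0.933 (SD, n = 3), and of the replicates only ChIP replicate 3 exceeded 2-fold there, at 2.43 and 2.49. The match at 17826625, with C13A, had the highest fold of the 6, at 1.15, 2.24 and 2.44.

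With exactly 2 mismatches the interval held 69 matches, of which 1, that of the second summit, was over 4-fold. Genome-wide the share was 0.266%, and as the second summit belongs to the selected site, the count is not read against it. The other 68 had a median fold of 0.769 and a highest fold of 3.15, in the Scarf2 intron.

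**Figure D4:**
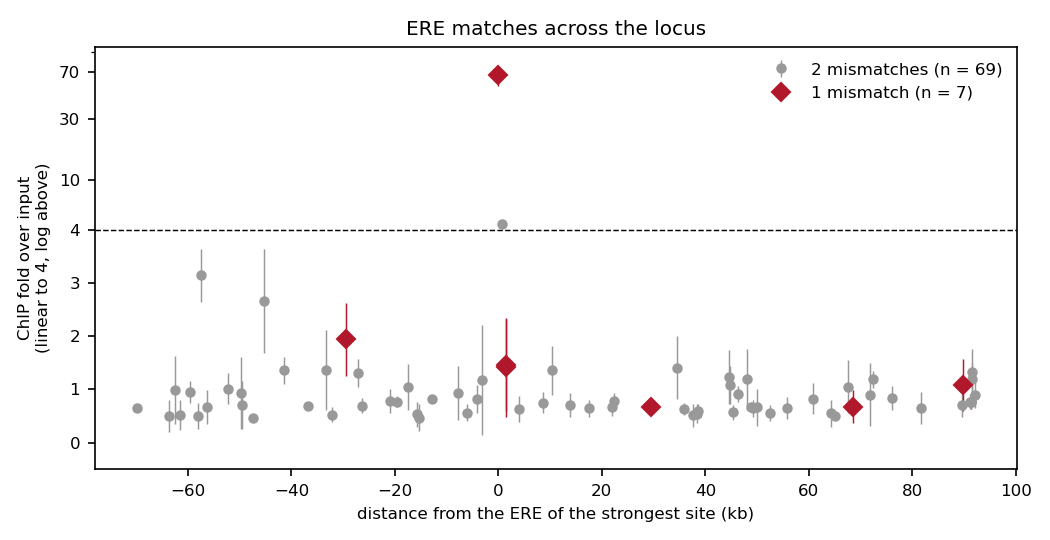
Mean fold over input (vertical, linear up to 4 and logarithmic above) of the 200-bp window around each ERE match against its distance from the ERE of the strongest site in kb (horizontal). Points are means and bars SD of the 3 ChIP libraries, red diamonds have 1 mismatch and gray circles 2, and the dashed line is at 4-fold. Only the ERE of the strongest site and that of the second summit lie above the line.

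The 13 bases of the ERE alone occur at 454 other places on the autosomes and chromosome X. Of these, 14 were over 4-fold in at least 2 ChIP libraries (3.08%), against 1.92% of all matches with exactly 1 mismatch and 2.27% of those with the same substitution. All 13 bases lay in a repeat at 328 of the copies and none did at 115, and each of these classes held 7 of the 14. The share over 4-fold was therefore larger outside repeats, where the ERE of the strongest site lies. The median fold of the copies was 0.946. Thus the same 13 bases were mostly found without enrichment.

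The copy with the highest fold, at chromosome 1, 185067867 to 185067879, lay 68.3 kb upstream of the nearest coding start, that of Mark1, which encodes a microtubule-affinity regulating kinase. The signal there was 32.8, 43.0 and 42.6 in ChIP replicates 1, 2 and 3 and 1.09 and 0.672 in the inputs. All ChIP values were above those of the Dgcr2 intron, but so were both inputs, and the fold was 44.9 ± 6.59 (SD, n = 3). Around the ERE in Dgcr2, in a window centered in the same way, the fold was 66.1 ± 11.5 (SD, n = 3). At the lower end, 4 copies were listed at 0 in all 3 ChIP libraries, 3 of them in both inputs too. The study used uniquely mapped reads, and whether reads can be assigned to these copies was not tested.

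Among all sites of the genome, 26.7% had a best ERE match with 1 mismatch in their 200-bp window, as the strongest site did, and 6.36% had a perfect match. Of the windows of that length in the genome, 0.529% hold a match with at most 1 mismatch and 6.68% a match with at most 2. The median fold was 7.45 for sites with a perfect match, 6.81 with 1 mismatch, 6.23 with 2 and 5.62 with none of these. Among the 10 sites of highest fold, 1 had a perfect match, 4 had 1 mismatch, 4 had 2 mismatches and 1 had no match with up to 2 mismatches. The highest fold of the genome was thus at a site with an imperfect ERE, while sites with a perfect one reached 51.3.

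Other motifs were searched on both strands in both summit windows. The half-site GGTCA was present in each only as part of the ERE, and occurs in 26.5% of 200-bp windows of the genome. The AP-1 motif, TGACTCA or TGAGTCA, to which dimers of Fos and Jun proteins bind, occurred in the second summit at 17856744 to 17856750, in the intron beside the exon boundary and clear of the ERE. It is present in 3.11% of windows. The strongest site held none. Neither window held the NR5A motif, TCAAGGTCA or CCAAGGTCA (0.693% of windows), the GATA motif, AGATAA or TGATAA (24.1%), or the FOXO motif, TGTTTAC (2.98%).

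The promoters of the 11 protein-coding genes that overlap the interval were compared over 1 kb before to 100 bp after the outermost coding start. At the Car15 promoter the signal was 0.481, 0.383 and 0.463 in ChIP replicates 1, 2 and 3 and 0.433 and 0.362 in Input replicates 1 and 2. The groups overlapped, and the fold was 1.11 ± 0.132 (SD, n = 3). At the outermost Dgcr2 promoter it was 0.208, 0.196 and 0.302 in the ChIP libraries and 0.220 and 0.294 in the inputs, again overlapping. Both inputs were under the floor there, and the fold was 0.639 ± 0.158 (SD, n = 3). This start lies next to that of Tssk1, and the promoter windows of both share bases. At the start of Gm20518, within 100 bp of the nearest coding start of Dgcr2, the ChIP signal was 0.386, 0.544 and 0.786 and the input signal 0.994 and 0.672.

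No promoter had every ChIP library above both inputs. At 3 of 11 all ChIP libraries were below both inputs. Of the 21755 protein-coding promoters of the autosomes and chromosome X, 4.83% had all ChIP libraries above and 25.7% all below both inputs. The counts for these 11 genes are thus near the background. The 3 were those of Klhl22, a substrate adaptor of a ubiquitin ligase, Tssk1, a testis-specific kinase, and Ess2, a nuclear protein linked to splicing. The Klhl22 promoter, at 17758618 to 17759718, lies outside the interval, which only part of that gene overlaps. At the Ess2 promoter the signal was 0.385, 0.477 and 0.747 in the ChIP libraries and 0.835 and 0.761 in the inputs. The folds of the 11 ranged from 0.636 at Tssk1 to 1.20 at Gsc2, a homeobox gene. The other genes were Scarf2, B830017H08Rik, Tssk2, a second testis-specific kinase, and Slc25a1, with folds between 0.690 and 0.856. With 3 libraries against 2, an exact permutation test cannot go below a 1-sided p of 0.1, and none was run.

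**Figure D5:**
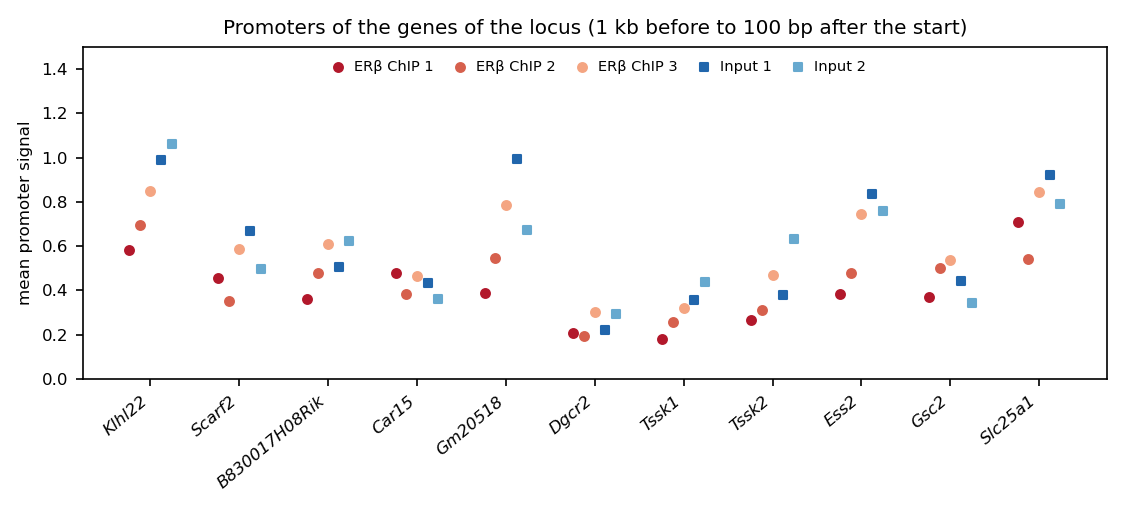
Mean signal (vertical) over the promoter of each gene that overlaps the interval (horizontal, in genome order), 1 point per library. ChIP libraries are circles and inputs squares, and the Klhl22 promoter itself lies outside the interval. No gene has all 3 circles above both squares, and at Car15 and the outermost Dgcr2 start they overlap. The promoter shown for Gm20518 lies at the nearest coding start of Dgcr2, where they overlap too.

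Averaged over each gene body without the 2 kb around the site, neither gene was enriched over input. Over the body of Dgcr2 the signal was 0.392, 0.452 and 0.487 in the ChIP libraries and 0.529 and 0.507 in the inputs, and over Car15 it was 0.432, 0.416 and 0.476 against 0.473 and 0.488. ChIP lay below input in Dgcr2, and the groups overlapped in Car15. The share of gene bodies with ChIP below input was not computed, and among promoters of the genome it was 25.7%. The highest 200-bp window of the Car15 body had a mean fold of 1.56, and that of Dgcr2 away from the site 2.35.

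The 3 sites whose signal pattern was most like that of the strongest site were found by the Euclidean distance of log2(signal + 0.5) over 5 libraries and 20 bins of 100 bp, which is 100 values per site. The nearest coding starts were those of Stk11ip (distance 5.08), Id3, an inhibitor of basic helix-loop-helix factors (5.09), and Hdac4, a histone deacetylase (5.13), against a median distance of 10.6 over all sites. The signal at the Stk11ip site was 15.1, 20.1 and 19.3 in ChIP replicates 1, 2 and 3 and 0.753 and 0.540 in the inputs. Its fold was 28.1 ± 4.17, that of the Id3 site 26.5 ± 1.92 and that of the Hdac4 site 28.0 ± 3.07 (SD, n = 3). That these folds were lower than at the Dgcr2 site follows from its choice as the site of highest fold. The best ERE in these windows had 1 mismatch at the Stk11ip site and 2 at the Id3 and Hdac4 sites.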

How the data were processed

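The 5 tracks hold signal (coverage) that the authors scaled to a common library total and deposited per library, without pooling. The study's methods name STAR for the alignment to GRCm38 (mm10), with uniquely mapped reads, and HOMER. Tool versions, duplicate handling and the fragment length used to build the tracks are not given in the sources used here. Signal times length summed to 928 to 948 M per library, so the tracks do not give the read depth and no counting interval was computed. The paper reports the number of aligned reads for its ChIP samples. Input replicate 1 had shorter track segments than Input replicate 2, with medians of 269 and 519 bp.

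Groups and replicates were taken from the sample titles. Means were read in 200-bp windows at steps of 10 bp on the autosomes and X, and windows over 4-fold in at least 2 ChIP libraries were joined within 200 bp into sites. Shares of windows refer to adjoining windows without unknown bases. limma 3.58.1 (R 4.3.3, trend) was run on log2(signal + 0.5) over 1-kb windows with a mean signal of at least 0.1, with Benjamini-Hochberg adjustment over 2430261 windows. Sequence and GENCODE annotation of GRCm38 were used, and ERE matches were searched in the genome with mismatches counted over the 10 fixed bases. Site calling and the limma fit were tested on simulated data. The members, lists and motifs were chosen with earlier results of these data known. Named were both genes, the protein-coding genes overlapping the interval, the nearest genes of the 3 sites most alike, and the extreme copies of the ERE.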

Additional observations from a re-analysis of the deposited data

How the results depend on the processing

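The strongest site had a fold of 64.9 to 77.0 when each library was left out in turn, 78.8 in 100-bp windows and 76.6 without the floor. In 400-bp windows it was 45.4, since the window is wider than the peak. The interval held 1 site with each library left out, at 8-fold, in all 3 ChIP libraries, in 400-bp windows, with the local 10-kb criterion and with 10 kb on each side. It held 3 at 3-fold, the others being the Scarf2 intron and the window upstream of Slc25a1. It held 2 without the floor, again through the latter, and 2 in 100-bp windows. It also held 2 when summits over 200 bp apart were counted separately, an alternative chosen after seeing the data. limma called 1 window with each library left out, with a pseudocount of 0.1 or 1, without the filter, and with the prefix of the track names as a term. The replicate block gave 2 windows, 1 higher and 1 lower, and 3426 higher and 3206 lower genome-wide. The sample titles give ChIP and Input replicates the same numbers but do not say whether they were paired. Deviations of ChIP replicates 1, 2 and 3 correlated with those of Input replicate 1 at 0.036, 0.011 and -0.046. With 2 inputs the deviations of one mirror those of the other, so these values cannot decide the pairing. Genome-wide, against 2325 higher and 65 lower, limma called 1358 and 27 without Input replicate 1 and 1004 and 11 without Input replicate 2, where the lone input was assumed to vary like the ChIP libraries. It called 1258 and 10 without ChIP replicate 2, 2455 and 683 without ChIP replicate 3, 670 and 327 without the filter, 2479 and 30 with a pseudocount of 0.1, and 2246 and 120 with the prefix as a term. The summit offset from the ERE was 26.0 bp in 100-bp windows and 25 bp in 50-bp windows. ERE matches over 4-fold numbered 2 with at most 2 mismatches and 1 with each library left out, and no match without mismatch exists in the interval. Without knockout libraries and with 2 inputs, signal that the antibody would give without ERβ cannot be told apart from ERβ signal here, and averaged segments limit the position of a summit.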
